A study of Mus musculus with 4 samples.

Results

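The 5 genes described here, Mat2a, Mat2b, Mettl16, Ahcy and Amd1, make, use or recycle S-adenosylmethionine (SAM), the methyl donor of RNA methylation, or methylate the RNA of the enzyme that makes it. They were chosen by name, as the rows that the site tables list under these symbols, out of 20001 genes listed in any library. Together they held 422 of 1076788 listed positions. Mat2a held 193 of them, Mat2b 111, Mettl16 97, Amd1 14 and Ahcy 7.

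Mat2a encodes the catalytic subunit of the methionine adenosyltransferase that makes SAM from methionine and ATP outside the adult liver, and Mat2b encodes its regulatory subunit. METTL16 is a methyltransferase that acts alone, apart from the METTL3 complex, and is known to methylate U6 small nuclear RNA and several hairpins of the 3' UTR of MAT2A mRNA. Through these hairpins the splicing and stability of MAT2A mRNA are known to follow the SAM level of the cell. Ahcy encodes the hydrolase that clears S-adenosylhomocysteine, the product left when SAM gives up its methyl group, and Amd1 encodes the decarboxylase that passes SAM into polyamine synthesis.

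The libraries came from polyA RNA of day 6 mouse retinal organoids, made from an Rx:GFP line that carries FKBP12F36V-HA at the C-terminus of endogenous Mettl3. This degron tag marks a protein for proteasomal degradation when the small molecule dTAG13 is added, and METTL3 catalyses most N6-methyladenosine (m6A) formation in mRNA. The untreated group (0 h, 0 nM) has 2 libraries and the dTAG13 group (8 h, 125 nM) has 2, all with the degron, with 1 batch label and collected together per the labels. Untagged organoids given dTAG13 were not part of the comparison. The genotype text names a different Mettl gene in each sample whereas the design text names METTL3 in all of them, and which gene carried the tag was not tested. The labels do not say whether same-group libraries came from separate cultures, so p-values measure only the spread between these libraries, which may be technical.

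Methylation was read by GLORI, a chemical conversion that turns unmethylated adenosine into a base read as G and leaves m6A read as A, so that the level of a position is the percentage of its A and G reads that carry A. The tables list only called positions, with at least 15 reads, at least 5 A reads and a level of at least 10%. An unlisted position may lack methylation, lack reads or miss these limits. The libraries listed 335607 and 350462 positions without dTAG13 and 220034 and 263069 with it, at a median of 75 to 91 reads. The retinal progenitor genes Rax, Pax6, Six3, Six6, Lhx2 and Sox2 were listed in all 4 libraries, and so were the pluripotency genes Pou5f1, Nanog and Zfp42, with a gene coverage of 165 to 698 against 59.0 to 221 in the untreated libraries.

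Coordinates are those of the tables. The submitters' processing notes name mm10, but 117 listed rows carry contig names of the later build GRCm39, and 0 rows of the 5 genes fell inside their mm10 gene intervals. No genome of the later build was used here, so exon, intron, UTR, the motif around a site and its hairpin were not assigned, and no site sequence is printed. Mat2a was listed on the minus strand of chromosome 6, from 72409781 to 72416511, a span of 6731 bases, and its mm10 gene record is 6761 bases long. High coordinates are therefore at the 5' end of the Mat2a RNA.

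In Mat2a, 4 positions were listed in every library, at 34.4% to 85.5% methylation, and no fall of their levels with dTAG13 passed the test. Most Mat2a positions were listed once, at low level. Of the 193 positions, 165 were found once, 20 were found in 2 libraries, 4 in 3 and 4 in all 4. The share in 2 or more libraries was 14.5%, against 8.65% over all positions listed inside genes, and the share in all 4 was 2.07% against 0.146%. The positions in 1 library had a median level of 15%, those in 2 libraries 17.6%, those in 3 libraries 14.7% and those in all 4 libraries 73.5%, over the values of each library that listed them. Read depth went along with recurrence, since the median depth was 203, 217, 222.5 and 823.5 reads in the same order, and its part in the listing was not tested.

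**Figure D1:**
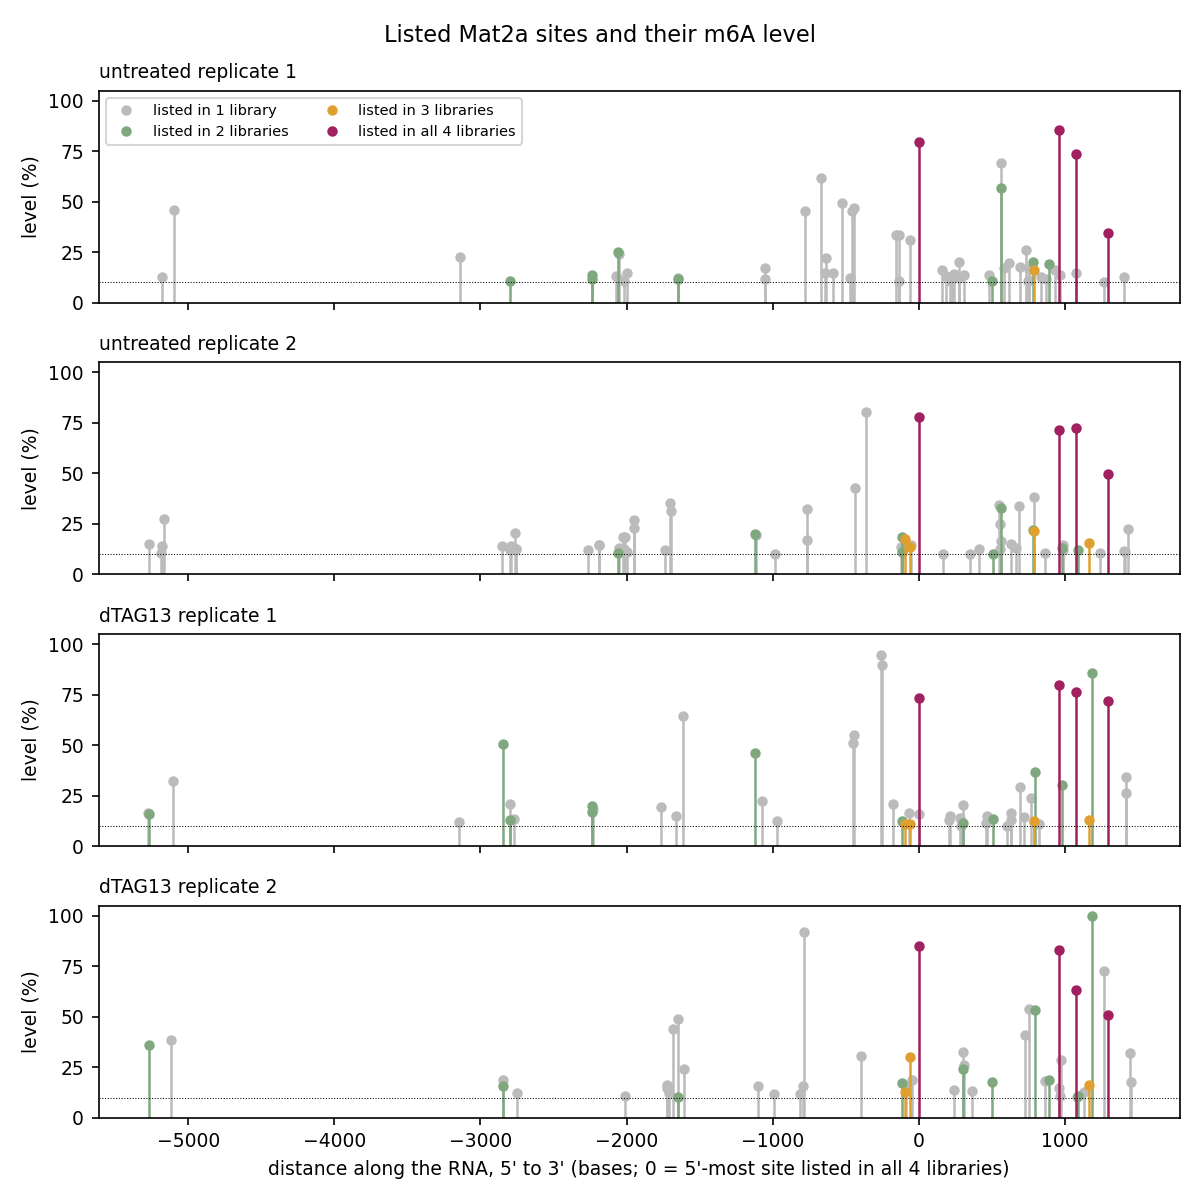
Level of every listed Mat2a position (percent, vertical axis) along the RNA from 5' to 3' (bases, horizontal axis, 0 at the 5'-most position listed in all 4 libraries), 1 panel per library, coloured by the number of libraries that list it; the dotted line is the 10% listing limit. Tall lines recur at 0, 963, 1078 and 1297 bases in all 4 panels, and a line at 1189 bases appears in both dTAG13 panels.

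From 5' to 3', the 4 positions were 72411233, 72410270, 72410155 and 72409936. The second lay 963 bases downstream of the first, the third 115 bases after the second, and the last 219 bases after the third. Between those last 2 stood 72410044, which both dTAG13 libraries listed at high level and neither untreated library listed. Counting it, 4 positions followed each other at intervals of 115, 111 and 108 bases, but other positions high in some libraries lay among or near them. Among these were 72409961, at 72.9% (207 reads) in dTAG13 replicate 2 alone, and 72410438, at 36.4% and 53.3% in the dTAG13 libraries. Further 5' lay 72410505, at 41.0% (210 reads) in dTAG13 replicate 2 alone. Beyond it lay 72410668, at 56.7% (30 reads) and 33.1% (124 reads) in the untreated libraries. The 5'-most of them all, 72411233, lay 5278 bases from the first listed position of the gene and 1452 bases from the last. These spacings are genomic, and for stretches that an intron could interrupt they are not distances on the mature mRNA.

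Position 72411233, the 5'-most, had levels of 79.7% (691 reads) and 77.9% (517 reads) in the untreated libraries and 73.3% (389 reads) and 85.2% (790 reads) with dTAG13. The untreated values lay between the dTAG13 values, and the group levels were 78.8% ± 1.27 and 79.2% ± 8.43 (SD, n = 2). The difference of reads pooled by group was 2.28 points, with a 95% interval of -9.58 to 14.1 (adjusted p = 0.940). Every adjusted p of a level is from the quasi-binomial model, whose dispersion was moderated with limma and which was fitted across the 2321 positions that every library listed at a depth of 20 or more reads.

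Position 72410270 had levels of 85.5% (1203 reads) and 71.4% (1049 reads) without dTAG13 and 79.9% (736 reads) and 83.3% (1794 reads) with it. Here the dTAG13 values lay between the untreated values. The group levels were 78.4% ± 9.94 and 81.6% ± 2.39 (SD, n = 2), and the pooled difference was 3.38 points (95% interval -10.1 to 16.9, adjusted p = 0.922 in the quasi-binomial fit with limma).

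Position 72410155 was the deepest of the 4, with levels of 73.7% (1653 reads) and 72.6% (1574 reads) without dTAG13 and 76.1% (1315 reads) and 63.3% (2028 reads) with it. One dTAG13 library was above both untreated libraries and the other below both. The group levels were 73.1% ± 0.84 and 69.7% ± 9.06 (SD, n = 2), and the pooled difference was -4.81 points (95% interval -17.1 to 7.50, adjusted p = 0.878 in the same limma-moderated fit).

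Position 72409936, the 3'-most, was the lowest and the most variable. Its levels were 34.4% (857 reads) and 49.8% (771 reads) without dTAG13 and 71.9% (455 reads) and 51.0% (606 reads) with it. Both dTAG13 libraries were above both untreated libraries, the second by a small margin, as was the case at 17.8% of all tested positions. The group levels were 42.1% ± 10.9 and 61.4% ± 14.8 (SD, n = 2), and the pooled difference was 18.2 points (95% interval -6.95 to 43.4, adjusted p = 0.703 in the same limma-moderated fit).

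None of the 4 Mat2a positions was called in either direction, where 2.2% of all 2321 tested positions were called lower and 0.0862% higher at an adjusted p under 0.05. At an unadjusted p under 0.05 the count was 0 of 4 for Mat2a, against 9.35% of tested positions. None had both dTAG13 libraries below both untreated libraries, which held at 19.4% of tested positions. A position had to be listed in every library to be tested. Any position that fell below the listing limit with dTAG13 is therefore missing from these shares, and the 4 Mat2a positions entered by staying listed. A limma fit of the log2 odds also called 0 of the 4, whereas Fisher's exact test on reads pooled by group, which ignores the spread between replicates, called 72409936 and 72410270 higher and 72410155 lower. Replicates of these positions differed by more than counting noise, with a Pearson dispersion of 12.5 to 43.3. The intervals given above are therefore wide even at the deepest position, and each of them holds falls as well as rises. Without dTAG13 replicate 2 the change of group means at 72410155 turned from -3.43 to 2.97 points and that at 72411233 from 0.38 to -5.58 points. Without untreated replicate 2 the change at 72410270 turned from 3.16 to -3.87 points and that at 72411233 to -0.51 points.

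**Figure D2:**
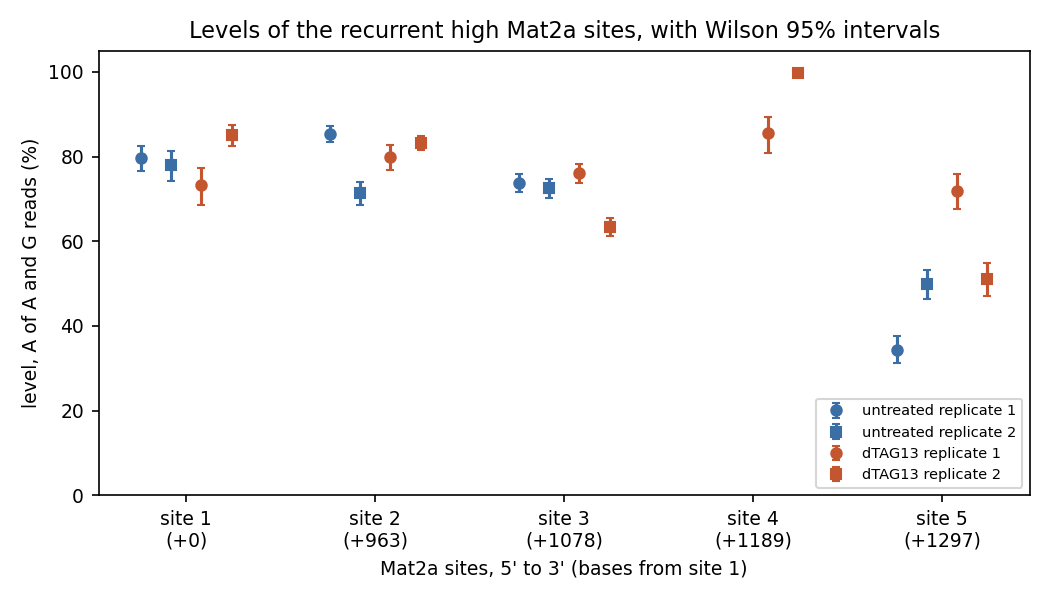
Level (percent of A among A and G reads) of the 5 high Mat2a positions from 5' to 3', with the distance in bases from the first under each name; points are single libraries and bars are Wilson 95% intervals of counting error. Sites 1, 2 and 3 have overlapping groups at 63.3% to 85.5%, site 4 (72410044) has dTAG13 values only, and site 5 lies at 34.4% and 49.8% without and 71.9% and 51.0% with dTAG13.

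Summed over the 4 positions, Mat2a levels were 70.2% (4404 reads) and 68.5% (3911 reads) without dTAG13, and 76.0% (2895 reads) and 72.1% (5218 reads) with it. Both dTAG13 values were above both untreated values, as in 17.3% of the 1016 genes tested. The pooled difference was 4.07 points, with a 95% interval of -0.59 to 8.73 and an adjusted p of 0.423 in the gene-level quasi-binomial fit moderated with limma. In that fit 4.53% of genes were called lower and 0.0% higher. It summed only positions listed in every library, so positions that fell below the listing limit are missing from it too. The higher summed level rested on 72409936. This position held 857 and 771 of the summed reads without dTAG13 and 455 and 606 with it, so the sum mixes its level with its weight. Summed over the other 3 positions the levels were 78.9% and 73.1% without and 76.8% and 74.8% with dTAG13, with overlapping groups and a change of group means of -0.16 points.

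Of all A reads at listed Mat2a positions, the 4 held 49.8% and 42.0% without dTAG13 against 44.6% and 42.1% with it. The median level of the other Mat2a positions was 14.7% and 14.6% without and 16.3% and 17.9% with dTAG13. Among positions of at least 40% and at least 200 reads, the untreated tables held 3 and 4 of Mat2a, all of them among the recurrent ones, and the dTAG13 tables held 5 and 8, with the 4 recurrent ones in each. Positions listed within 10 bases of 72411233, 72410270 or 72410155 had levels of 10.5% to 28.8%, and 72409936 and 72410044 had no listed neighbour within that distance. The share of unconverted A in Mat2a was 3.81% and 3.66% without and 3.53% and 4.35% with dTAG13. This is a mean over the gene, and conversion at the single positions was not measured.

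The fifth high position, 72410044, was listed at 85.6% (231 of 270 reads, Wilson 95% interval 80.9% to 89.3%) and 99.8% (450 of 451 reads, 98.8% to 100.0%) in the dTAG13 libraries. It was not listed in either untreated library, so no difference can be tested. In untreated replicate 2 the nearest listed position, 72410065, lay 21 bases away with 530 reads. In untreated replicate 1 the nearest listed positions lay 81 and 109 bases away with 296 and 1764 reads. The number of reads at 72410044 itself in the untreated libraries was not measured, and this position can be unlisted there for lack of reads or for lack of A.

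The 4 positions listed in 3 libraries were all of low level. Position 72410065 was listed at 15.7% without and at 12.8% and 16.2% with dTAG13, at 530 to 1206 reads. Position 72410445 had 16.3% and 21.5% without and 12.2% with dTAG13. Position 72411293 had 13.7% without and 10.8% and 30.2% with dTAG13, and 72411328 had 17.5% without and 10.9% and 12.7% with it. In a fit with the positions of 3 or more libraries, in which the missing library was left out of each fit, the adjusted p of these 4 was 0.711 to 0.965 (quasi-binomial model moderated with limma), but that fit called 0 positions of any gene and so does not set Mat2a apart.

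Of the 20 positions listed in 2 libraries, 3 were in both untreated libraries, 5 in both dTAG13 libraries and 12 in 1 of each, shares of 15%, 25% and 60%. Over all positions inside genes that 2 libraries listed, the shares were 31.0%, 11.8% and 57.2%. The 3 untreated ones were 72410447 (20.2% and 21.9%), 72410668 (56.7% at 30 reads and 33.1% at 124 reads) and 72413289 (25.2% and 10.7%). The 5 dTAG13 ones were 72410044, described above, 72410438 (36.4% and 53.3%), 72410932 (11.5% and 24.1%), 72414081 (50.7% and 15.7%) and 72416501 (16.0% and 36.0%). Each of these 5 differed by over 10 points between the replicates of the same group.

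The 12 Mat2a positions listed once in each group mostly had low levels in both, at 112 to 763 reads apart from the first 2 below. At the deep position 72410138 the level was 12.3% (3019 reads) without and 10.8% (3407 reads) with dTAG13. At 72410249 it was 13.3% (1773 reads) and 30.4% (1212 reads), and at 72410338 it was 18.9% and 18.6%. At 72412356 it was 20.1% and 46.2%, the highest level of this group. The others, 72410722, 72410730, 72411344, 72411349, 72412880, 72413467, 72413472 and 72414029, ranged from 10.1% to 20.0%. The dTAG13 value was the higher one at 8 of the 12 and the lower one at 4. A level under 10% is never listed, so these pairs leave out any position that fell below that limit.

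The 28 positions listed in 2 or more libraries spanned 6565 bases, with gaps of 2 to 2420 bases and a median gap of 68. Of the 27 gaps, 9 were under 25 bases, such as 72410445 and 72410447, 72410722 and 72410730, 72411344 and 72411349, and 72413467 and 72413472. Listed positions of Particl, the antisense transcript at the 5' end of Mat2a, lay on the opposite strand inside the Mat2a span in 3 libraries, at 2, 1 and 2 positions. Whether the counting separated the strands is not given in the sources used here.

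The number of listed Mat2a positions was 62 and 66 without and 55 and 50 with dTAG13. The means were 64.0 ± 2.83 and 52.5 ± 3.54 (SD, n = 2), a ratio of 0.820, and the exact permutation test gave p = 0.333, the smallest that 2 against 2 libraries allow. The dTAG13 libraries were below the untreated ones, as in 44.6% of the 12520 genes listed in all 4 libraries and in 58.1% of the genes with at least 20 positions in every library. The whole tables had a ratio of 0.704. The drop in Mat2a lay in positions under 20%, of which there were 40 and 44 without and 31 and 28 with dTAG13. At 20% or above Mat2a had 22 and 22 without and 24 and 22 with dTAG13, a ratio of 1.05, where the whole tables had 0.713. Mat2a was not alone in this, since the ratio was 1.03 for Mat2b, 1.05 for Mettl16 and 2.33 for Amd1. For Ahcy it was 0.75, and Ahcy and Amd1 had few positions.

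Mat2a was then set against other positions of similar level. Of the tested positions inside genes, 114 had an untreated mean of 40% to 90%: the 4 of Mat2a and 110 in 108 other genes. Choosing by the untreated level favours a fall with dTAG13, so the contrast is descriptive. The other positions had a median level of 63.0% and 54.1% without and 28.8% and 33.3% with dTAG13. The mean of the 4 Mat2a positions was 68.3% and 67.9% without and 75.3% and 70.7% with it. The gap of Mat2a over the others was therefore 5.33 and 13.8 points in the untreated and 46.5 and 37.4 points in the dTAG13 libraries. Its mean widened by 32.4 points, from 9.57 to 42.0, and both dTAG13 values were above both untreated values (exact two-sided permutation test over libraries, p = 0.333, the smallest possible).

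Of these 114 positions, 16.7% were called lower, 50.9% had both dTAG13 libraries below both untreated libraries, and 4.39% had both above. The median change of the 110 others was -22.0 points, with quartiles of -43.2 and -2.98, whereas the 4 Mat2a positions changed by -3.43 to 19.3 points. Mat2a was not alone in this, since 29 of the 110 changed by no less than the lowest Mat2a value. These positions were chosen by their untreated level, which favours a fall in the others. They also had to be listed in every library, which leaves out falls below the listing limit. Their shares and median change are therefore no test of Mat2a. With the choice made on the mean of all 4 libraries the others included nearly complete untreated positions, with medians of 87.6% and 82.2%. Mat2a then differed from them by -19.2 and -14.3 points without and by 34.1 and 29.7 points with dTAG13, a widening of 48.6 points. A nearly complete untreated position enters this range only if its level fell. This choice therefore also favours a fall in the others and is no check on the first widening.

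**Figure D3:**
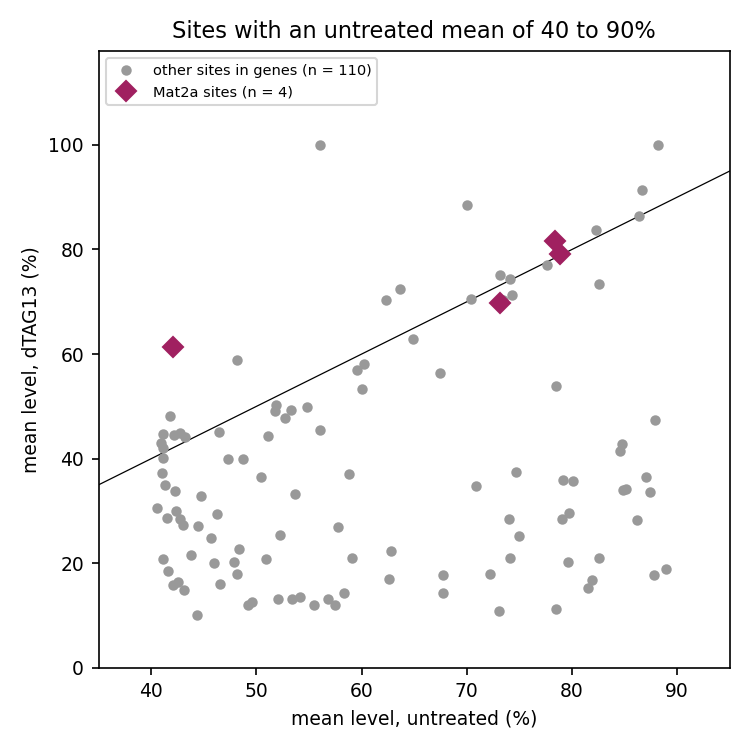
Mean level of each tested position inside genes with an untreated mean of 40% to 90%, untreated on the horizontal and dTAG13 on the vertical axis (percent; each the mean of 2 libraries); diamonds are the 4 Mat2a positions, grey points the 110 others, and the line marks equal levels. Of the Mat2a positions 3 lie near the line and 72409936 lies 19.3 points above it, whereas the others have a median change of -22.0 points. The choice by untreated level favours such a fall, and falls below the listing limit are left out.

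Genes with several high positions were few. In both untreated libraries, 159 positions in 149 genes were at 40% or more, and 9 genes had 2 or more of them: Abhd13, Atxn7l3b, Cenpb, Ddx6, Mat2a, Mid1, Slc35a4, Txnl4a and Ythdf3. These genes were chosen on the untreated libraries, which favours a fall, so no count of falls is given. Position 72409936 of Mat2a was not among them, since it was under 40% in untreated replicate 1. When 40% was required in all 4 libraries, 60 positions in 58 genes were left, and Mat2a, with 3, was the gene with more than 1. This rule removes every position that fell below 40% in a dTAG13 library. The other genes named above could drop out through that change alone, so this count is no test of Mat2a. Of these 60 positions 32 lay in genes with the prefix Gm or LOC or the suffix -ps, names given to predicted genes and pseudogenes.

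Among the 26 genes with at least 3 tested positions, the profile closest to Mat2a over the 4 libraries was that of Tnks1bp1, at a Euclidean distance of 88.5 points, then Tmsb10 at 89.3 and Hnrnpa1 at 96.3. Mat2a is itself among the 26 and had the highest level of them in every library, so no other was close to it. The distance was taken over untreated and dTAG13 levels together, so it mixes level with change. Tnks1bp1 had a mean level of 23.4% without and 31.6% with dTAG13, and Tmsb10 34.0% without and 21.8% with it. In Hnrnpa1, which encodes a splicing regulator, the levels were 34.1% and 37.3% without and 16.0% and 13.9% with dTAG13. In the gene-level quasi-binomial fit moderated with limma, Tmsb10 (adjusted p = 0.0317) and Hnrnpa1 (adjusted p = 0.00539) were called lower. Tnks1bp1 was not called (adjusted p = 0.286 in that fit). Of all genes tested, 4.53% were called lower.

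Mat2b, the regulatory subunit gene, was listed on the minus strand of chromosome 11 from 40570156 to 40585728, with 43 and 31 positions without and 31 and 27 with dTAG13. The groups met at 31, the ratio of means was 0.784 (exact permutation p = 0.667), and at 20% or above the ratio was 1.03. Of its 111 positions 92 were found once, 17 were found in 2 libraries, 2 in 3 and 0 in all 4, so 17.1% recurred, a share like that of Mat2a, but at low level. The positions in 2 libraries had a median level of 20.2%. Position 40575604 was listed at 17.5% and 15.4% without and 22.8% with dTAG13 (adjusted p = 0.775 in the fit of positions in 3 or more libraries, moderated with limma). Position 40578621 was at 14.3% and 25.3% without and 37.5% with dTAG13 (adjusted p = 0.662 in the same limma-moderated fit).

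The 17 Mat2b positions listed in 2 libraries lay partly in a cluster near the 3' end of the span. From 40570168 to 40571500 there were 8, at 11.1% to 44.6%: 40570168, 40570268, 40570417, 40570642, 40570820, 40570865, 40570985 and 40571500. Position 40573347 stood alone at 20.5% and 22.0%. Next to 40575604 lay 40575588, 40575589 and 40575613, and at 40575589 the levels were 19.6% (112 reads) without and 94.4% (18 reads) with dTAG13. At 40575613 they were 13.5% (170 reads) and 72.0% (75 reads), and both high values were from dTAG13 replicate 1. The remaining 5, 40576142, 40578497, 40578557, 40585631 and 40585643, lay between 10.5% and 41.8%. Of the 11 Mat2b positions listed once in each group, the dTAG13 value was higher at 6 and lower at 5, with a median difference of 0.16 points.

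Mettl16, on the plus strand of chromosome 11, was listed from 74661780 to 74716577, a span of 54798 bases. It had 18 and 33 positions without and 17 and 31 with dTAG13, which followed the replicate number and not the group (ratio 0.941, exact permutation p = 0.667). Its coverage was low, at 58.2 and 66.5 without and 69.9 and 70.0 with dTAG13. Median levels were 53.0% and 32.1% without and 40.5% and 53.2% with dTAG13, at a median of 43 to 77 reads. In untreated replicate 1, 6 of the 18 positions had 50 or more reads. The unconverted share of Mettl16 was 7.25% and 2.67% without and 2.76% and 3.23% with dTAG13. Its part in these levels was not tested. High levels at Mettl16 did not recur: of 97 positions, 95 were in 1 library and 2.06% in 2. These were 74708202, at 52.1% without and 30.4% with dTAG13, and 74708631, at 22.5% and 25.0%. High levels at positions of a single library were common in this shallow gene.

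Ahcy was listed in a window of 288 bases on the minus strand of chromosome 2, from 154901298 to 154901585, with 3, 1, 0 and 3 positions in the order untreated 1 and 2, dTAG13 1 and 2. None of its 7 positions recurred in a second library. Its levels ranged from 21.5% to 100.0% at 45 to 123 reads. Ahcy was not listed in dTAG13 replicate 1, so it has no coverage value there and was not tested.

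Amd1 was listed on the minus strand of chromosome 10 from 40164825 to 40166257, with 4 and 3 positions without and 6 and 4 with dTAG13 (ratio 1.43, exact permutation p = 0.667), and a ratio of 2.33 at a level of at least 20%. Position 40166187 was at 15.6% without and 32.7% and 26.8% with dTAG13, at 107 to 198 reads (adjusted p = 0.630 in the fit of positions in 3 or more libraries, moderated with limma). Position 40166248 was at 55.1% in untreated replicate 1 and 30.6% in dTAG13 replicate 1. The unconverted share of the gene was 4.71% and 6.46% without and 1.69% and 1.44% with dTAG13, and its part in these levels was not tested. Amd2, a near-identical copy of Amd1, was listed at 0, 8, 4 and 3 positions in the same library order, so the assignment of Amd1 reads is uncertain.

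**Figure D4:**
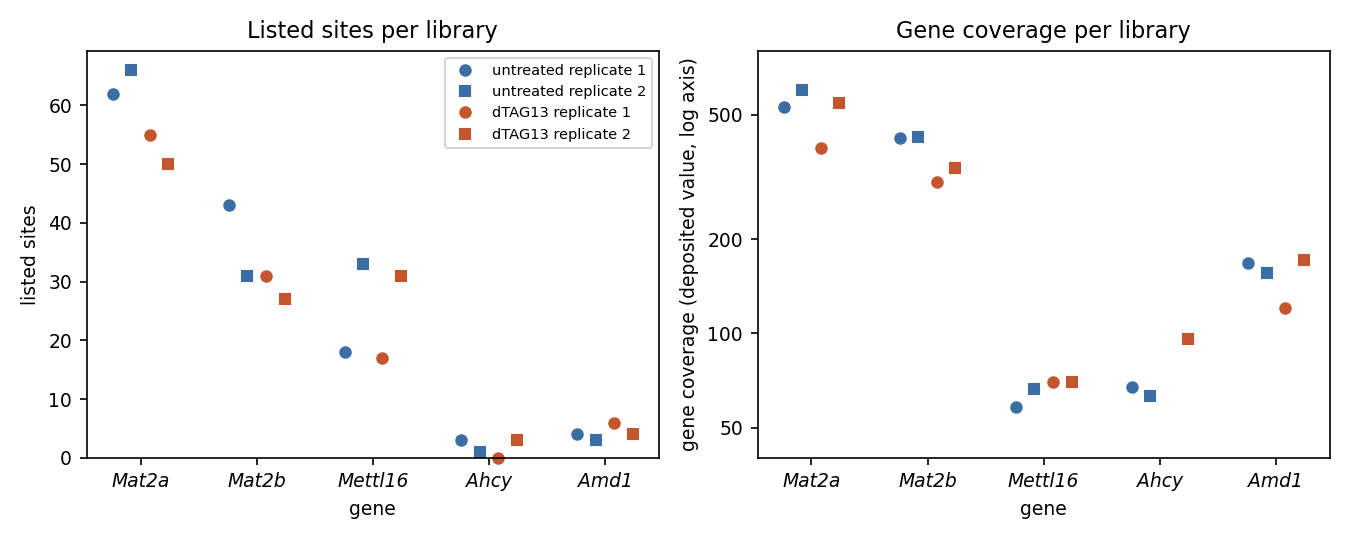
Left, number of listed positions of each gene in each library; right, the deposited gene coverage on a log axis. Points are single libraries, with untreated in blue and dTAG13 in orange. Mat2a has the most positions in every library (50 to 66), Ahcy and Amd1 have 6 or fewer, and Ahcy has no coverage value in dTAG13 replicate 1.

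RNA level was read from the coverage the authors deposited for each gene, which reflects abundance and depth together. Mat2a had a coverage of 528 and 601 in the untreated and of 390 and 546 in the dTAG13 libraries, the highest of the 5 genes in every library. After centring on the median gene of each library, both dTAG13 values were below both untreated values, as in 29.2% of genes, and the log2 change was -0.21 ± 0.20 (SE; limma, adjusted p = 0.677). Mat2b had 420 and 424 without and 304 and 338 with dTAG13, also both below after centring, with a log2 change of -0.32 ± 0.21 (SE; limma, adjusted p = 0.545). Mettl16 changed by 0.25 ± 0.23 (limma, adjusted p = 0.664). Amd1, at 168 and 155 without and 121 and 171 with dTAG13, changed by -0.08 ± 0.20 (limma, adjusted p = 0.877). In this fit 0.0% of the 12520 genes were called, and 8.34% were lower and 4.4% higher at an unadjusted p under 0.05. Leaving out dTAG13 replicate 1 or 2 moved the change of Mettl16 to 0.04 or 0.46 and that of Mat2b to -0.45 or -0.18, and leaving out untreated replicate 1 or 2 moved that of Amd1 to -0.00215 or -0.17. In bulk RNA, fewer cells of a type and less RNA per cell cannot be told apart.

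The wider pathway was taken as 42 further genes. They covered the methionine cycle, folate one-carbon metabolism, polyamine synthesis and methionine salvage, and SAM use and transport. RNA factors were included too, some of them, but not all, reported to act on Mat2a RNA. Of the 42 genes, 38 were listed in some library and 34 in all 4. Bhmt, Bhmt2, Gnmt and Nnmt, enzymes best known from liver, were not listed. Their listed positions summed to 1085 and 993 without and 787 and 834 with dTAG13. The whole tables were lower with dTAG13 too, at a ratio of 0.704. Over all positions listed inside genes, 8.65% were in 2 or more libraries and 0.146% in all 4. The different positions of the pathway genes were not counted, so their own shares are not known and cannot be set beside these. The pathway genes held 313 positions listed in 2 or more libraries, and 1 position listed in all 4. That one lay in Sms, spermine synthase, at 156227319 on chromosome X, with levels of 19.6% and 21.8% without and 29.2% and 19.8% with dTAG13. Its pooled difference was 4.16 points (95% interval -6.80 to 15.1, adjusted p = 0.878, quasi-binomial fit moderated with limma).

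In gene coverage, 0 of the 34 tested pathway genes were called, and their median log2 change was -0.09 against -0.07 over all genes tested. At an unadjusted p under 0.05 in limma, 5 were lower: Adk (adenosine kinase, log2 change -0.62), Azin1 (an antizyme inhibitor of the polyamine pathway, -0.58), Larp7 (-1.05), Mthfd1 (-0.64) and Shmt2 (mitochondrial serine hydroxymethyltransferase, -0.77). The one higher gene was Ythdf1, a cytoplasmic m6A reader, at 0.79. Over all genes tested 8.34% were lower and 4.4% higher by this measure. Both dTAG13 libraries were below both untreated ones in 13 of the 34, against 29.2% of all genes tested, and above in 4, against 17.0%. In Ythdc1, the nuclear m6A reader reported to act on Mat2a splicing, coverage was 198 and 193 in untreated and 241 and 256 in dTAG13 libraries, a log2 difference of 0.43 that was not called (limma, adjusted p = 0.452).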

How the data were processed

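Each library has 1 site table, used as deposited by the authors. For every called position it holds the deposited counts of A and G reads and of A reads, the deposited fraction of A (the level, equal to the ratio of those counts within 0.0001 at 100.0% of rows), the conversion fraction of the gene, a coverage signal per gene and a p-value with its adjusted value. The largest adjusted p-value deposited was 0.00401. Aligner, caller and duplicate handling are not given in the sources used here, and the genome build mm10 is that of the submitters' processing notes.

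Groups came from the sample titles. Levels were tested at positions that every library listed at a depth of 20 or more reads, with a quasi-binomial model of A and G reads, Pearson dispersion moderated with limma 3.58.1 (R 4.3.3) and held at 1 or above, a two-sided deviance F test and Benjamini-Hochberg adjustment over all positions, threshold 0.05. The same model was fitted to reads summed per gene. Log2 gene coverage, centred on the median gene, was tested with limma. Scripts were tested on simulated data. Named were all positions of the 5 genes in 2 or more libraries, pathway genes with a position in all 4 libraries, and the 3 genes closest to Mat2a. Other pathway genes named, and the genes with several high positions, were chosen after their values were seen. One marker gene is not reported here. Members and lists were chosen with earlier results of these data known. Wilson intervals cover counting error only, since reads may be PCR duplicates.

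Alternatives varied the read minimum, the model, the libraries required, the replicate block, centring, pseudocount and filter of coverage, and left out each library. Correction for unconverted A, the sum without one Mat2a position and the settings of the Mat2a contrast were added after seeing the data.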

Additional observations from a re-analysis of the deposited data

How the results depend on the processing

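The number of positions called, 53 in the main setting, was 52 with a minimum of 15 reads and 41 with 50 reads or with limma on log2 odds. It was 0 with positions of 3 or more libraries, 0 to 0 when each library was left out, and 531 with Fisher's exact test on pooled reads, which ignores the spread between replicates. Genes called numbered 46 in the main setting, and 0 to 5 with a library left out. Same-numbered libraries did not deviate together (r = 0.0385 over positions), so the numbers were not taken as pairs. With the replicate block 0 positions and 0 genes were called. Coverage called 0 genes in the main setting and 15 without centring. The Mat2a change of the summed level stayed between 2.71 and 6.68 points with a library left out and was -0.16 points without 72409936, and its coverage change between -0.27 and -0.14. The coverage change ran from 0.04 to 0.46 for Mettl16, -0.45 to -0.18 for Mat2b and -0.17 to -0.00215 for Amd1. Changes at single Mat2a positions with a library left out ranged from 8.88 to 29.8 points at 72409936, -9.84 to 2.97 at 72410155, -3.87 to 10.2 at 72410270 and -5.58 to 6.35 at 72411233, where leaving out untreated replicate 2 gave -0.51. Over the alternatives other than Fisher's exact test, the adjusted p ran from 0.634 to 0.933, 0.228 to 0.959, 0.367 to 0.991 and 0.527 to 0.984 in that order. Pooled Fisher's exact test gave an adjusted p of 4.07e-19, 0.000143, 0.0168 and 0.420. Correction for unconverted A gave changes of 19.9, -3.66, 3.24 and 0.38 points. The widening of Mat2a over other positions was 39.3 and 39.6 points with at least 50 and 200 reads, 42.9 without genes named Gm, LOC or -ps, and 27.1 to 36.9 with a library left out. All of these settings chose positions by untreated level, which favours a fall in the others. Ratios of listed positions turned above 1 at a level of at least 20% for Mat2a (1.05), Mat2b (1.03) and Mettl16 (1.05), and the Amd1 ratio moved from 1.43 to 2.33. The Ahcy ratio was 1.0 at 50 or more reads. With a library left out the ratios ran from 0.781 to 0.859 for Mat2a, 0.667 to 1.33 for Mettl16 (1.33 without untreated replicate 2, 1.22 without dTAG13 replicate 1) and 0.0 to 1.5 for Ahcy (1.5 without untreated replicate 1 or dTAG13 replicate 1). The widening was 27.6 points without 72409936. The intervals of the single Mat2a positions are wide and reach well below and above 0.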
